A study of Homo sapiens with 6 samples.

Results

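The heat shock proteins and related molecular chaperones of H69 cells were followed after trichostatin A (TSA). A gene belonged to the set if its symbol in the deposited expression table named an HSP90, HSP70, HSP110 or small heat shock protein, a J-protein (DNAJA, DNAJB or DNAJC), HSP60 or HSP10 of mitochondria, a subunit of the CCT ring, a BAG protein, HSPBP1, STIP1, HSF1 or HSF2. HSPA5, DNAJB9 and DNAJC3 were left out of it. The rule took 83 of the 31814 genes in the table. It used names only and no measured value, but it was chosen with earlier results of these data known. The set is wider than a list of cytosolic chaperones, since some members reside in mitochondria or the endoplasmic reticulum. The TSA group was the human cell line H69 given 1 µM TSA for 24 h, and the vehicle group was the same line given the solvent DMSO, both in RPMI with serum. Each group had 3 libraries of polyadenylated RNA. The treatment tag of the TSA samples reads HSA, while the design text names TSA.

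Chaperones bind unfolded proteins and keep them from aggregating. HSP70 and HSP90 use ATP to fold clients, J-proteins bring clients to HSP70, BAG proteins and HSP110 release the nucleotide from HSP70, and STIP1 joins HSP70 to HSP90. Part of the family is present at all times, and part is switched on by heat shock factor 1 when proteins misfold. TSA inhibits histone deacetylases, and among its targets HDAC6 is known to deacetylate HSP90.

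The labels do not name the tissue of the line, and H69 is the name of more than one human line. All 10 neuroendocrine markers looked for reached 1 TPM in at least 3 libraries, as did 8 of 10 bile duct markers. Their summed level was 1470 to 1550 TPM in TSA libraries and 2630 to 3130 TPM in vehicle libraries for the neuroendocrine list, and 379 to 487 TPM in TSA libraries and 861 to 1050 TPM in vehicle libraries for the bile duct list. Fibroblast markers summed to 5.53 to 7.47 TPM in TSA libraries and 0.211 to 0.935 TPM in vehicle libraries, leukocyte markers to 5.41 to 6.07 TPM and 4.00 to 4.92 TPM, and endothelial markers to 0.179 to 0.275 TPM and 0.398 to 0.583 TPM. No marker of these lists was at 0 in every library, and the part of these shifts in the results was not tested. Whole reads worked back from the deposited values came to at least 23009041 per TSA library and at least 22533307 per vehicle library. Transcripts of the mitochondrial genome took 16.9%, 7.65% and 10.4% of the TPM in TSA libraries 1, 2 and 3, against 12.3%, 4.97% and 10.1% in vehicle libraries 1, 2 and 3. No label says that the 3 libraries of a group were separate cultures, so the spread between them may be technical. TPM is a share of each library: a lower value cannot be told apart from a rise of other transcripts, nor fewer expressing cells from less RNA per cell.

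Of the 83 members, 74 reached 1 TPM in at least 3 libraries and were tested. The test was limma on log2(TPM + 1), adjusted by Benjamini-Hochberg over all tested genes, with a threshold of 0.05. TSA raised 20 members and lowered 25, while 29 did not pass. The share called was 60.8% of the tested members, against 62.2% of the 17596 genes tested, of which 28.0% were higher and 34.2% lower. At least 2-fold changes were reached by 11 members that rose and 10 that fell, against 15.5% and 19.7% of all tested genes. The 3 TSA values lay above the 3 vehicle values for 22 tested members and below them for 30, and overlapped for 22. Over all tested genes they did not overlap for 67.0%, with 30.8% above and 36.2% below. The median log2 fold change was −0.10 over the members and −0.10 over all tested genes. The set as a whole therefore moved about as often as any other gene, and the description that follows is of which members went which way. A median-of-ratios scaling moved the median of all tested genes by 0.11 and a quantile scaling by 0.10, and the sign of a small change depends on that choice. In the authors' deposited table, 18 of the tested members were higher and 19 lower at an FDR under 0.05, where 21.8% of all listed genes were higher and 19.5% lower. All 37 of these members were called in the same direction by limma, and the other 8 limma calls did not pass in the authors' deposited table. All listed genes include those too low to be tested here, so their shares have another base than the tested members. Of the members not tested here, HSPA12B and DNAJB13 were higher in that table and HSPB6 lower (authors' FDR 1.2e-08, 0.014 and 0.00017).

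**Figure D1:**
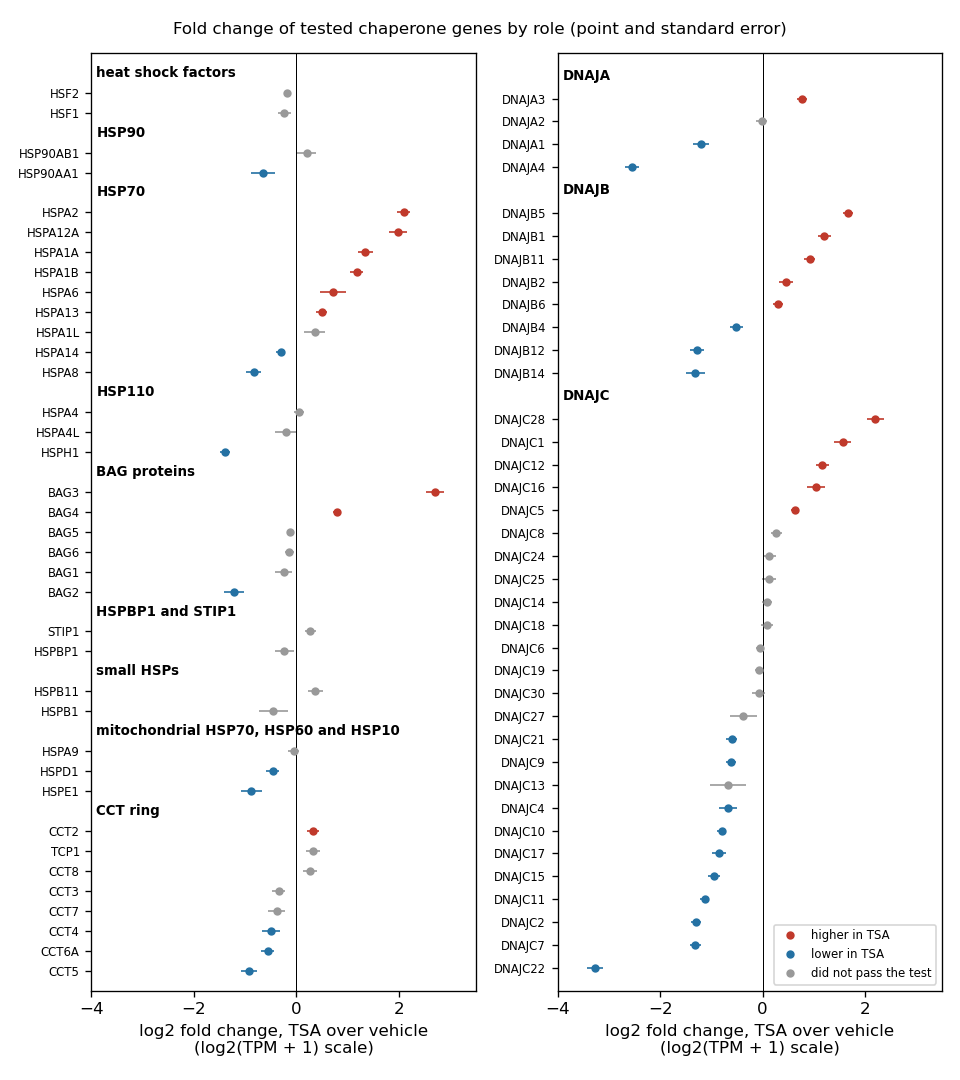
Log2 fold change (TSA over vehicle, on the log2(TPM + 1) scale) of the 74 tested members, grouped by role, with the standard error as a bar and n = 3 libraries per group. The points run from −3.27 for DNAJC22 to 2.70 for BAG3, and all those of the heat shock factors and of the mitochondrial HSP70, HSP60 and HSP10 lie below 0.

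Summed over the members, chaperone transcripts made up 1.36%, 1.63% and 1.51% of the TPM in TSA libraries 1, 2 and 3, against 1.74%, 1.997% and 1.85% in vehicle libraries 1, 2 and 3. The groups did not overlap. With the transcripts of the mitochondrial genome taken out of the total, the shares were 1.64%, 1.76% and 1.69% in TSA libraries and 1.99%, 2.10% and 2.06% in vehicle libraries. A few genes carry this sum: HSP90AA1, HSP90AB1, HSPA8, DNAJA1 and CCT8 held 49.7% to 51.7% of it in TSA libraries and 57.1% to 57.4% in vehicle libraries.

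Neither transcription factor of the response passed the test. HSF1 (ENSG00000185122.6), the main activator of heat shock genes, was at 30.5, 34.9 and 37.6 TPM in TSA libraries, against 35.6, 44.4 and 41.9 TPM in vehicle libraries. HSF2 (ENSG00000025156.8), a related factor, was at 82.1, 80.9 and 82.3 TPM in TSA libraries and 96.0, 88.7 and 92.7 TPM in vehicle libraries. The HSF1 values overlapped and the HSF2 values did not (log2 fold change −0.24 ± 0.13 SE, adjusted p 0.14, and −0.17 ± 0.076 SE, adjusted p 0.086, limma). With length and GC trends removed from each library, HSF1 was lower (log2 fold change −0.45, adjusted p 0.013). Messenger RNA does not show the activity of these factors, which are controlled at the protein level.

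The constitutive HSP70 gene HSPA8 fell, and the heat-inducible genes HSPA1A and HSPA1B rose. HSPA8 (ENSG00000109971.9), the constitutive HSC70, had 1226, 1175 and 1113 TPM in TSA libraries, against 2124, 2144 and 1979 TPM in vehicle libraries. Every TSA value lay below every vehicle value, with a log2 fold change of −0.83 ± 0.14 SE (limma adjusted p 0.0023). HSPA1A (ENSG00000204389.8), an HSP70 induced by heat, had 139, 129 and 136 TPM in TSA libraries, against 64.5, 50.2 and 43.9 TPM in vehicle libraries. HSPA1B (ENSG00000204388.5), its near-identical neighbour, had 125, 108 and 115 TPM in TSA libraries and 57.7, 51.6 and 43.2 TPM in vehicle libraries. Both rose without overlap, by 1.35 ± 0.15 and 1.18 ± 0.13 on the log2 scale (SE, limma adjusted p 0.00027 and 0.00026). Reads of such close copies can be assigned to either gene, so their separate values are uncertain. The ratio of HSPA1A to HSPA8 in TPM was 0.113, 0.11 and 0.122 in TSA libraries, against 0.0304, 0.0234 and 0.0222 in vehicle libraries. HSPA8 was thus the more abundant in every library of both groups.

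Of the 11 genes of this family, 9 were tested, 6 rose and 2 fell, so that 88.9% were called, against 62.2% of all tested genes (28.0% higher and 34.2% lower). HSPA2 (ENSG00000126803.8), an HSP70 best known from testis, had 25.6, 23.6 and 23.9 TPM in TSA libraries and 5.69, 4.43 and 4.77 TPM in vehicle libraries (log2 fold change 2.09 ± 0.13 SE, limma adjusted p 2.8e-05). HSPA12A (ENSG00000165868.8), a distant relative, had 25.5, 19.5 and 18.1 TPM in TSA libraries and 5.41, 4.08 and 4.25 TPM in vehicle libraries (log2 fold change 1.97 ± 0.17 SE, limma adjusted p 0.00011). Neither pair of groups overlapped. HSPA13, a member of microsomes, averaged 170.3 ± 18.1 TPM in TSA libraries and 120.1 ± 3.95 TPM in vehicle libraries (SD, n = 3 each, limma adjusted p 0.0051).

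HSPA6 (ENSG00000173110.6), the strictly inducible HSP70 of human cells, stayed near the floor of the measurement. It had 2.45, 1.32 and 1.44 TPM in TSA libraries, from 47, 26 and 27 recovered reads, against 0.905, 0.903 and 0.214 TPM in vehicle libraries, from 16, 15 and 4 reads. Its call (log2 fold change 0.72 ± 0.25 SE, limma adjusted p 0.045) ended in 10 of 18 alternatives, and leaving out any single library ended it, with an adjusted p of 0.060 to 0.14. HSPA14, a ribosome-associated HSP70, had 48.1, 46.7 and 45.7 TPM in TSA libraries and 57.3, 64.4 and 53.4 TPM in vehicle libraries. Its call (log2 fold change −0.31 ± 0.096 SE, limma adjusted p 0.028) ended in 10 of 19 alternatives, among them the median-of-ratios (adjusted p 0.23) and quantile scaling (adjusted p 0.18). Leaving out TSA replicate 2 or 3 or vehicle replicate 1 or 2 also ended it, with an adjusted p of 0.068 to 0.095. HSPA1L did not pass, at 5.04, 3.17 and 4.14 TPM in TSA libraries and 2.34, 3.22 and 3.39 TPM in vehicle libraries (adjusted p 0.17).

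Among the nucleotide exchange factors of the HSP110 family, 1 of 3 genes changed, where 62.2% of all tested genes were called. HSPH1 (ENSG00000120694.15), HSP105, had 113, 104 and 94.4 TPM in TSA libraries, against 277, 255 and 292 TPM in vehicle libraries. The groups lay far apart, with a log2 fold change of −1.39 ± 0.10 SE (limma adjusted p 5.8e-05). HSPA4, its constitutive relative, averaged 218 ± 15.4 TPM in TSA libraries and 211 ± 19.3 TPM in vehicle libraries (SD, n = 3 each, limma adjusted p 0.69), and HSPA4L averaged 18.2 ± 4.98 and 20.9 ± 3.32 TPM (adjusted p 0.43). The ratio of HSPH1 to HSPA4 was 0.469 to 0.489 in TSA libraries and 1.25 to 1.39 in vehicle libraries. With length and GC trends removed, HSPA4 was higher (log2 fold change 0.35, adjusted p 0.015) and HSPA4L, whose sign turned, was higher too (0.39, adjusted p 0.0066).

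BAG3 (ENSG00000151929.5), the BAG protein of stressed cells that works with HSPB8 in selective autophagy, had the greatest rise of the tested members. It had 10.8, 10.1 and 10.6 TPM in TSA libraries, from 215, 207 and 206 recovered reads, against 1.09, 0.811 and 0.463 TPM in vehicle libraries, from 20, 14 and 9 reads. The log2 fold change was 2.70 ± 0.17 SE (limma adjusted p 3.4e-05), on a log2(TPM + 1) scale that understates changes of low genes. In the authors' deposited table the log2 fold change was 3.80 for BAG3 and 5.12 for HSPA12B, a member not tested here. BAG4, which binds HSP70 and tumour necrosis factor receptors, had 78.9, 84.7 and 80.2 TPM in TSA libraries and 46.1, 47.6 and 45.7 TPM in vehicle libraries, a rise by 0.79 ± 0.077 SE on the log2 scale (limma adjusted p 0.00017). BAG2, an inhibitor of the ubiquitin ligase CHIP, had 2.28, 3.40 and 2.26 TPM in TSA libraries and 7.30, 8.64 and 6.33 TPM in vehicle libraries, and fell by 1.21 on the log2 scale (SE 0.19, limma adjusted p 0.0014). The exons of BAG2 overlap genes of the opposite strand over 44.2% of their bases, and the sources used here do not say whether counting used strand. The same holds for CCT5 (30.1%), DNAJC9 (28.6%), DNAJC11 (27.9%) and DNAJC17 (26.1%), while HSPA1B (36.5%) and HSPA14 (17.4%) share exon bases with another entry on their own strand, so these values are uncertain. BAG6, the most abundant of the family, had 117, 104 and 115 TPM in TSA libraries and 120.3, 126 and 122 TPM in vehicle libraries and did not pass (adjusted p 0.19). BAG1 and BAG5 did not pass either (adjusted p 0.25 and 0.22).

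The HSP90 pair was the most abundant part of the set. HSP90AA1 (ENSG00000080824.14), the stress-responsive form, had 1977, 2922 and 2619.8 TPM in TSA libraries, against 3675, 4179 and 3828 TPM in vehicle libraries. HSP90AB1 (ENSG00000096384.15), the constitutive form, had 2133, 2549.8 and 2384 TPM in TSA libraries, against 1787, 2264 and 2098 TPM in vehicle libraries. The groups were separate for HSP90AA1, which fell by 0.65 on the log2 scale (SE 0.23, limma adjusted p 0.045), and overlapped for HSP90AB1 (log2 fold change 0.20 ± 0.19 SE, adjusted p 0.38). The call of HSP90AA1 was fragile: it ended in 9 of 19 alternatives, with an adjusted p of 0.00099 to 0.22 over all of them. Leaving out TSA replicate 1 gave 0.075, TSA replicate 3 0.12, vehicle replicate 1 0.072, vehicle replicate 2 0.083 and vehicle replicate 3 0.10, while its log2 fold change stayed below 0 in all 19. TSA library 1, the lowest of its group for HSP90AA1, also had the highest mitochondrial share. The call of HSP90AA1 was kept where the libraries were rescaled without mitochondrial genes. Beyond that rescaling, the part of this share was not tested. The ratio of HSP90AB1 to HSP90AA1 was 1.08, 0.873 and 0.910 in TSA libraries, against 0.486, 0.542 and 0.548 in vehicle libraries.

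STIP1, the adaptor between HSP70 and HSP90, had 387, 434 and 416 TPM in TSA libraries and 312, 368 and 346 TPM in vehicle libraries. These values did not overlap, but the test was not passed (log2 fold change 0.27 ± 0.11 SE, limma adjusted p 0.065). HSPBP1, an HSP70 exchange factor, averaged 51.0 ± 10.6 TPM in TSA libraries and 59.7 ± 8.44 TPM in vehicle libraries (SD, n = 3 each, adjusted p 0.30).

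**Figure D2:**
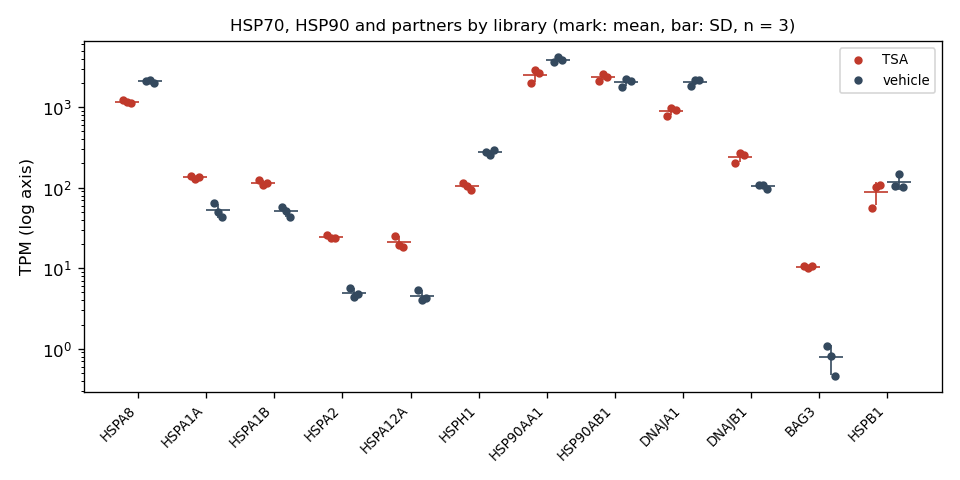
TPM in each library (log axis) of genes of the HSP70 and HSP90 cycle, with TSA libraries left of vehicle libraries, a line at the mean and a bar of 1 SD (n = 3). HSPA8, HSPH1, HSP90AA1 and DNAJA1 lie lower in TSA libraries, HSPA1A, HSPA1B, HSPA2, HSPA12A, DNAJB1 and BAG3 higher, and HSP90AB1 and HSPB1 overlap.

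The small heat shock proteins, which hold unfolded proteins without ATP, were mostly at low levels. Of 7 genes only HSPB1 and HSPB11 reached the level for testing, and neither passed. HSPB1 (ENSG00000106211.8), HSP27, had 56.5, 103 and 108 TPM in TSA libraries, against 106, 149 and 102 TPM in vehicle libraries, with overlap and an adjusted p of 0.20 (limma). With length and GC trends removed, HSPB1 was called lower (limma adjusted p 0.029). HSPB11, a protein of intraflagellar transport, had 92.4, 119.5 and 112 TPM in TSA libraries and 83.5, 96.3 and 71.3 TPM in vehicle libraries (adjusted p 0.067). It was called higher in 8 of 19 alternatives. HSPB6 was at 0.0799 to 0.311 TPM in TSA libraries, from 1 to 4 recovered reads, and at 0.782 to 1.76 TPM in vehicle libraries, from 9 to 19 reads. HSPB8, the partner of BAG3, was at 0.0482, 0.0938 and 0.0494 TPM in TSA libraries and was listed at 0 in every vehicle library. HSPB2, HSPB7 and HSPB9 were at 0.218 TPM or less in every library. The other members left untested were HSPA7 (a pseudogene of the HSPA6 type), HSPA12B, DNAJB13 and CCT6B. HSPA12B was at 0.824, 0.465 and 0.846 TPM in TSA libraries, from 19, 11 and 19 reads, and at 0, 0 and 0.0445 TPM in vehicle libraries, where a single read was recovered.

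J-proteins, which choose the clients of HSP70, made up 38 of the 83 members. Of the 37 tested, 11 rose, 15 fell and 11 did not pass, so that 70.3% were called, against 62.2% of all tested genes. All 8 tested genes of the DNAJB class changed, 5 upward and 3 downward, where 28.0% of all tested genes were higher and 34.2% lower.

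In the DNAJA class DNAJA1 and DNAJA4 fell and DNAJA3 rose. DNAJA1 (ENSG00000086061.11), the abundant cytosolic partner of HSPA8, had 785, 971 and 910.0 TPM in TSA libraries, against 1853, 2151 and 2149 TPM in vehicle libraries (log2 fold change −1.21 ± 0.16 SE, limma adjusted p 0.00062). DNAJA4 (ENSG00000140403.8), a cytosolic member of the class, had 2.88, 2.91 and 2.79 TPM in TSA libraries and 23.2, 22.9 and 18.9 TPM in vehicle libraries (log2 fold change −2.55 ± 0.13 SE, limma adjusted p 1.7e-05). DNAJA3, the J-protein of the mitochondrial matrix, had 105, 103 and 97.5 TPM in TSA libraries and 58.0, 65.1 and 54.0 TPM in vehicle libraries (log2 fold change 0.78 ± 0.097 SE, limma adjusted p 0.00049). None of the 3 pairs of groups overlapped, while those of DNAJA2 did (43.9 ± 3.65 TPM in TSA libraries and 44.3 ± 3.87 TPM in vehicle libraries, SD, n = 3 each).

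DNAJB1 (ENSG00000132002.3), the heat-inducible HSP40, rose together with HSPA1A. It had 204, 270.0 and 256 TPM in TSA libraries, against 109, 108 and 96.7 TPM in vehicle libraries (log2 fold change 1.20 ± 0.13 SE, limma adjusted p 0.00026). The ratio of DNAJB1 to DNAJA1 was 0.259 to 0.282 in TSA libraries and 0.0450 to 0.0590 in vehicle libraries. DNAJB5 had 29.7, 28.5 and 27.5 TPM in TSA libraries and 8.41, 7.97 and 8.58 TPM in vehicle libraries, the greatest rise of its class (1.66 ± 0.10 SE on the log2 scale, limma adjusted p 2.7e-05). DNAJB11, a partner of the HSP70 of the endoplasmic reticulum and the most abundant of the class, had 281, 327 and 308 TPM in TSA libraries and 143, 173 and 167 TPM in vehicle libraries (log2 fold change 0.92 ± 0.11 SE, limma adjusted p 0.00046).

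DNAJB12 and DNAJB14, related J-proteins anchored in the membrane of the endoplasmic reticulum, fell. DNAJB12 had 4.97, 4.27 and 4.12 TPM in TSA libraries and 11.7, 13.3 and 11.7 TPM in vehicle libraries (log2 fold change −1.28 ± 0.13 SE, limma adjusted p 0.00023). DNAJB14 had 3.40, 2.40 and 1.95 TPM in TSA libraries and 8.16, 6.95 and 8.28 TPM in vehicle libraries (log2 fold change −1.31 ± 0.19 SE, limma adjusted p 0.00099). DNAJB4 had 11.5, 11.02 and 10.4 TPM in TSA libraries and 17.3, 17.3 and 13.8 TPM in vehicle libraries, and its call (log2 fold change −0.51 ± 0.13 SE, limma adjusted p 0.013) ended without TSA replicate 3 (0.053) and under quantile scaling (0.11). DNAJB2, known from neurons, and DNAJB6, a suppressor of aggregation, rose by 0.46 ± 0.13 and 0.30 ± 0.10 on the log2 scale (SE, limma adjusted p 0.022 and 0.042). Both calls were lost when TSA replicate 2, TSA replicate 3, vehicle replicate 1 or vehicle replicate 3 was left out, with an adjusted p of 0.068 to 0.079 for DNAJB2 and 0.060 to 0.13 for DNAJB6. Without vehicle replicate 2 the adjusted p of DNAJB6 was 0.071.

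The 25 DNAJC genes, a class of J-proteins tied to special tasks, were all tested, with 5 higher, 10 lower and 10 not passing. The share called was 60.0%, near the 62.2% of all tested genes (28.0% higher and 34.2% lower). DNAJC22 (ENSG00000178401.10), a membrane J-protein, had the greatest fall of the set, with 4.87, 3.28 and 3.29 TPM in TSA libraries, against 47.4, 42.3 and 45.1 TPM in vehicle libraries (log2 fold change −3.27 ± 0.16 SE, limma adjusted p 1.3e-05). DNAJC7, which binds both HSP70 and HSP90, had 28.4, 34.0 and 32.0 TPM in TSA libraries and 73.3, 86.7 and 79.1 TPM in vehicle libraries (log2 fold change −1.31 ± 0.11 SE, limma adjusted p 8.5e-05). DNAJC2, a ribosome-bound J-protein and the partner of HSPA14, had 18.8, 16.3 and 16.8 TPM in TSA libraries and 43.9, 41.6 and 46.8 TPM in vehicle libraries (log2 fold change −1.30 ± 0.10 SE, limma adjusted p 6.7e-05). All 3 showed separate groups. The other members that fell were DNAJC11 and DNAJC15 of mitochondria, DNAJC9, a chaperone of histones, DNAJC10, a reductase of the endoplasmic reticulum, DNAJC17 of the nucleus, DNAJC21 of ribosome assembly, and DNAJC4, with log2 fold changes of −1.13 to −0.60. With length and GC trends removed, the calls of DNAJC10 (log2 fold change −0.12, adjusted p 0.75), DNAJC15 (−0.43, adjusted p 0.15) and DNAJC21 (−0.15, adjusted p 0.27) ended, and that of DNAJC4 ended under quantile scaling (adjusted p 0.12) and median-of-ratios scaling (adjusted p 0.054).

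DNAJC28 had the greatest rise of the class, with 16.0, 12.6 and 12.6 TPM in TSA libraries, against 2.61, 1.85 and 2.17 TPM in vehicle libraries (log2 fold change 2.20 ± 0.17 SE, limma adjusted p 6.1e-05). DNAJC1, a J-protein of the endoplasmic reticulum membrane, had 87.4, 129 and 118 TPM in TSA libraries and 32.7, 41.6 and 36.0 TPM in vehicle libraries (log2 fold change 1.56 ± 0.17 SE, limma adjusted p 0.00026). DNAJC12, a chaperone of the aromatic amino acid hydroxylases, had 47.0, 63.0 and 56.1 TPM in TSA libraries and 22.4, 24.8 and 24.8 TPM in vehicle libraries (log2 fold change 1.16 ± 0.13 SE, limma adjusted p 0.00027). DNAJC16 rose by 1.03 ± 0.18 and DNAJC5, the cysteine string protein of synaptic vesicles, by 0.63 ± 0.083 on the log2 scale (SE, limma adjusted p 0.0021 and 0.00062).

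DNAJC8, a spliceosomal protein and the most abundant of the class, did not pass at 252, 298 and 279 TPM in TSA libraries and 219, 246 and 223 TPM in vehicle libraries, although the groups did not overlap (adjusted p 0.062). DNAJC6, the neuronal auxilin that uncoats clathrin vesicles with HSPA8, averaged 44.2 ± 1.51 TPM in TSA libraries and 46.0 ± 2.05 TPM in vehicle libraries (SD, n = 3 each, limma adjusted p 0.60).

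The matrix chaperonin genes fell and the mitochondrial HSP70 did not pass. HSPD1 (ENSG00000144381.12), HSP60, had 341, 400.5 and 368 TPM in TSA libraries, against 448, 538 and 544 TPM in vehicle libraries (log2 fold change −0.46 ± 0.12 SE, limma adjusted p 0.016). HSPE1 (ENSG00000115541.6), HSP10 and the lid of HSP60, had 97.3, 152 and 135 TPM in TSA libraries, against 188, 276 and 242 TPM in vehicle libraries (log2 fold change −0.88 ± 0.21 SE, limma adjusted p 0.0094). The groups were separate for both genes, which lie head to head and share a promoter region. The call of HSPD1 ended without TSA replicate 3 (0.062), without vehicle replicate 3 (0.066), under median-of-ratios scaling (0.16) and in the test of recovered reads (0.062). HSPE1 shares exons with the readthrough gene HSPE1-MOB4, so its value is uncertain. HSPA9, mortalin, had 534, 555 and 523 TPM in TSA libraries and 519, 577 and 575 TPM in vehicle libraries (log2 fold change −0.050 ± 0.10 SE, adjusted p 0.70).

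The CCT ring, which folds actin and tubulin, is built from 8 different subunits in equal numbers, and their transcripts moved unequally. Per length, the highest subunit was 3.0 to 3.49 times the lowest in TSA libraries and 3.37 to 3.99 times in vehicle libraries. CCT5 (ENSG00000150753.7) had 242, 315 and 292 TPM in TSA libraries, against 469.9, 605 and 535 TPM in vehicle libraries, and fell by 0.92 on the log2 scale (SE 0.15, limma adjusted p 0.0016). CCT6A had 476, 570.4 and 524 TPM in TSA libraries and 717, 819 and 779 TPM in vehicle libraries (log2 fold change −0.56 ± 0.12 SE, limma adjusted p 0.0068, and 0.087 under median-of-ratios scaling). CCT4 had 183, 264 and 227 TPM in TSA libraries and 270.1, 373 and 305 TPM in vehicle libraries (log2 fold change −0.49 ± 0.18 SE, limma adjusted p 0.047). CCT2 had 271, 342 and 306 TPM in TSA libraries and 236, 257 and 234 TPM in vehicle libraries, and rose by 0.33 ± 0.12 SE on the log2 scale (limma adjusted p 0.042). CCT8 had 639, 791 and 721 TPM in TSA libraries and 547, 668 and 569.8 TPM in vehicle libraries, with overlap (adjusted p 0.14).

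The calls of CCT4 and CCT2 were fragile, and ended in 9 and 8 of 19 alternatives. Median-of-ratios scaling (adjusted p 0.22 for CCT4 and 0.062 for CCT2), no filter (0.083 and 0.067) and limma without trend (0.059 for both) ended each of them, and voom on recovered reads (0.13) and removal of length and GC trends (0.061) ended that of CCT4. Leaving out TSA replicate 1, TSA replicate 3, vehicle replicate 2 or vehicle replicate 3 ended that of CCT4 (adjusted p 0.10 to 0.13), and leaving out TSA replicate 2 or 3 or any vehicle library ended that of CCT2 (adjusted p 0.054 to 0.13). TCP1, the first subunit, averaged 267 ± 28.6 TPM in TSA libraries and 214 ± 31.9 TPM in vehicle libraries (SD, n = 3 each, limma adjusted p 0.091). CCT3 averaged 574 ± 45.2 TPM in TSA libraries and 728 ± 72.8 TPM in vehicle libraries, and CCT7 304 ± 41.2 TPM and 398 ± 68.0 TPM (adjusted p 0.055 and 0.079). For both, every TSA value lay below every vehicle value, although neither passed. The fold changes of the 8 subunits kept their sign in all 19 alternatives. The ratio of CCT8 to CCT5 was 2.64, 2.51 and 2.47 in TSA libraries, against 1.16, 1.10 and 1.07 in vehicle libraries. Exons of CCT5 overlap a gene of the opposite strand over 30.1% of their bases, and processed pseudogenes of the CCT6 type reached at most 4.14% of the CCT6A level.

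**Figure D3:**
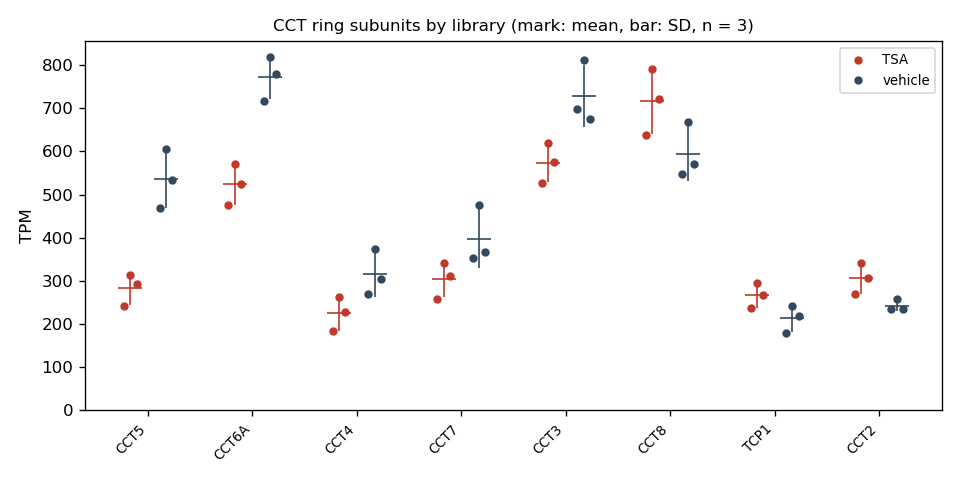
TPM in each library of the 8 subunits of the CCT ring, with TSA libraries left of vehicle libraries, a line at the mean and a bar of 1 SD (n = 3). CCT5, CCT6A, CCT4, CCT3 and CCT7 lie lower in TSA libraries and CCT2 higher, and CCT8 and TCP1 overlap. CCT3 and CCT7 did not pass the test.

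Promoter windows were read for the heat shock element, the binding motif of HSF1, because the set holds both classical targets of that factor and genes with no such link. The sequences are from RefSeq (build GRCh38.p14), which had 99 windows of 300 bases for 72 of the 83 members, each from 250 bases before a transcript start to 50 after it. The motif sought was 3 alternating units spaced by 2 bases, GAANNTTCNNGAA or its reverse complement TTCNNGAANNTTC, which covers both strands, and matches may overlap. It was present in 7 of the 72 member genes (9.72%), against 166 of 27305 genes with a window (0.608%). These genes were HSPA8, HSP90AA1, DNAJA1, HSPD1, HSP90AB1, HSPA6 and DNAJB6. The first 4 of them were lower in TSA libraries, HSPA6 and DNAJB6 were higher, and HSP90AB1 did not pass. The calls of HSP90AA1, HSPD1, HSPA6 and DNAJB6 ended in some alternatives. Members without the match in these windows went both ways. HSPA1A, HSPA1B, DNAJB1 and BAG3 rose, while HSPH1, DNAJA4, DNAJC7 and CCT5 fell. The lack of a match says only that these letters are not in these windows. The shorter pair of units, GAANNTTC or TTCNNGAA, was found in 36.1% of the member genes and in 16.2% of all genes.

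The windows of members that fell are shown in transcript direction with 3-unit matches in capitals, up to the start for HSPA8 and HSP90AA1 and through the match just past the start for DNAJA1 (266 bases). They are chr11:123062137-123062386 on the minus strand for HSPA8 (matches at −230 and −55), chr14:102087045-102087294 on the minus strand for HSP90AA1 (match at −88) and chr9:33025023-33025288 on the plus strand for DNAJA1 (match at position 4 after the start).
HSPA8: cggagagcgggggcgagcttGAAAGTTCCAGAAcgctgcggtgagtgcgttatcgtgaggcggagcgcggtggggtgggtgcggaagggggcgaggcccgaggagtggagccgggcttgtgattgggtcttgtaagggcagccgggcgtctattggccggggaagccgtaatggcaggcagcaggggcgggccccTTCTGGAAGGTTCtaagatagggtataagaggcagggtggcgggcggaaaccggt
HSP90AA1: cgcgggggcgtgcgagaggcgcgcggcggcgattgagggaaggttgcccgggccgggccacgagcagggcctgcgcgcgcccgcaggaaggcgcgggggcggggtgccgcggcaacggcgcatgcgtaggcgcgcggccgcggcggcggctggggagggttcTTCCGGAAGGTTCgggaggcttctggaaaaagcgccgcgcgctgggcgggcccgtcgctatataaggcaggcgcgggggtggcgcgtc
DNAJA1: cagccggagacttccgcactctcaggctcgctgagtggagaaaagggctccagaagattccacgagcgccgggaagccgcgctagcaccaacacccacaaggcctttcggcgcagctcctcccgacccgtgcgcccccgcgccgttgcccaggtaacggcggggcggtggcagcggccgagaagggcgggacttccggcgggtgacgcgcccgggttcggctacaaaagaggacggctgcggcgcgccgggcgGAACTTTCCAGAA
Beside them stand the windows of members that rose, chosen after their values were seen: chr1:161524290-161524539 for HSPA6 (match at −74), chr6:31815293-31815542 for HSPA1A and chr10:119651130-119651379 for BAG3, all on the plus strand. In HSPA1A the capitals mark a single pair of units, and the BAG3 window holds neither form.
HSPA6: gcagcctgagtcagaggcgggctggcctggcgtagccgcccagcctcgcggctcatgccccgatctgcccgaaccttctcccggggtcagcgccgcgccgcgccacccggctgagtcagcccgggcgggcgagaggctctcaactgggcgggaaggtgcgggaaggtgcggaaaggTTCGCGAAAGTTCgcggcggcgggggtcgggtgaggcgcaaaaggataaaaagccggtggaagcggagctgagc
HSPA1A: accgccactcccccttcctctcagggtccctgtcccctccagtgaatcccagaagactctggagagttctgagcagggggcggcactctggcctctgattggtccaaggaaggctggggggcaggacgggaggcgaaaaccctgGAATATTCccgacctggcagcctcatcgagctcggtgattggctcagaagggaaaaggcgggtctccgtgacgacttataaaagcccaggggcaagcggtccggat
BAG3: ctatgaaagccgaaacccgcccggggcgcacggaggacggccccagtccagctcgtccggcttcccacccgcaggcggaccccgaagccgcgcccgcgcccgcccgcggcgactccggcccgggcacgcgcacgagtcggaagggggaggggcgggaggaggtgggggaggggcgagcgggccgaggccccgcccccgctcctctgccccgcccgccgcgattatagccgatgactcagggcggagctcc
For HSPD1, HSP90AB1 and DNAJB6 the sites alone are given, with flanking bases in lower case. They lie at chr2:197500064-197500089 on the minus strand, chr6:44247774-44247794 on the plus strand (the first of 2 matches) and chr7:157336869-157336889 on the plus strand. HSP90AA1, HSPD1 and HSP90AB1 have more than one annotated start, and the match lies in the window of a single start.
HSPD1: cattTTCTGGAAAGTTCTGGAAccga
HSP90AB1: caggTTCTGGAAGATTCatgg
DNAJB6: ccgaGAACCTTCGCGAAggtg

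Folding genes outside the set were read from a list of 53, of which 52 were tested with the same fit. Of these 25 rose, 14 fell and 13 did not pass, so that 75.0% were called, against 62.2% of all tested genes (28.0% higher and 34.2% lower). Their median log2 fold change was 0.30, against −0.10 over all tested genes. The list was chosen with earlier results of these data known, so these shares are a description and not a test. Among 16 partners of HSP90, 8 rose and 5 fell. STUB1, which encodes the ubiquitin ligase CHIP that marks chaperone clients for degradation, had 308, 377 and 406 TPM in TSA libraries, against 76.1, 95.4 and 74.9 TPM in vehicle libraries (log2 fold change 2.13 ± 0.15 SE, limma adjusted p 4.4e-05). CDC37, which brings protein kinases to HSP90, had 538, 477 and 542 TPM in TSA libraries and 121, 118 and 120.4 TPM in vehicle libraries (log2 fold change 2.10 ± 0.092 SE, limma adjusted p 1.0e-05). Both pairs of groups lay apart. AHSA2, named as a homologue of an HSP90 activator and annotated as a pseudogene in GENCODE 29, had 4.89, 1.06 and 1.95 TPM in TSA libraries and 18.1, 4.41 and 10.0 TPM in vehicle libraries, with overlap. Its call (log2 fold change −1.67 ± 0.55 SE, limma adjusted p 0.035) ended without TSA replicate 2 or 3 or vehicle replicate 1 or 3 (adjusted p 0.099 to 0.11).

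Of 6 prefoldin genes, whose product hands nascent actin and tubulin to the CCT ring, 2 rose and 3 fell. VBP1, one of those subunits, had 173, 247 and 217 TPM in TSA libraries and 422, 536 and 473 TPM in vehicle libraries (log2 fold change −1.17 ± 0.16 SE, limma adjusted p 0.00082). Of 5 partners of HSP70, 3 rose and none fell. Of 3 partners of the CCT ring PDCL3 fell and the others did not pass, and of 6 mitochondrial genes 1 rose and 3 fell. Of 9 genes resident in the endoplasmic reticulum, among them HSPA5, DNAJB9 and DNAJC3, 7 rose and none fell, where 28.0% of all tested genes were higher and 34.2% lower. Their median log2 fold change was 0.72, against −0.10 over all tested genes, and DNAJB9 and CANX did not pass. This group too was chosen with earlier results known. Of members of the set tied above to that compartment or to microsomes, DNAJB11, DNAJC1 and HSPA13 rose, while DNAJB12, DNAJB14 and DNAJC10 fell. The call of DNAJC10 ended with length and GC trends removed (limma adjusted p 0.75). HSPA5, the HSP70 of that compartment, averaged 1721 ± 244 TPM in TSA libraries and 751 ± 131 TPM in vehicle libraries (SD, n = 3 each, limma adjusted p 0.0017).

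Of the 8 genes of proteotoxic stress 7 were tested, 4 rose and 2 fell, where 28.0% of all tested genes were higher and 34.2% lower. HMOX1, heme oxygenase, had 6.35, 9.26 and 8.57 TPM in TSA libraries, against 1.12, 2.58 and 0.881 TPM in vehicle libraries (log2 fold change 1.89 ± 0.28 SE, limma adjusted p 0.0011). SERPINH1, the collagen chaperone HSP47, had 2.89, 2.81 and 3.45 TPM in TSA libraries and 12.4, 13.6 and 9.26 TPM in vehicle libraries (log2 fold change −1.64 ± 0.18 SE, limma adjusted p 0.00027). HDAC6 did not pass, at 28.8 ± 8.88 TPM in TSA libraries and 22.9 ± 3.59 TPM in vehicle libraries (SD, n = 3 each, limma adjusted p 0.31).

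**Figure D4:**
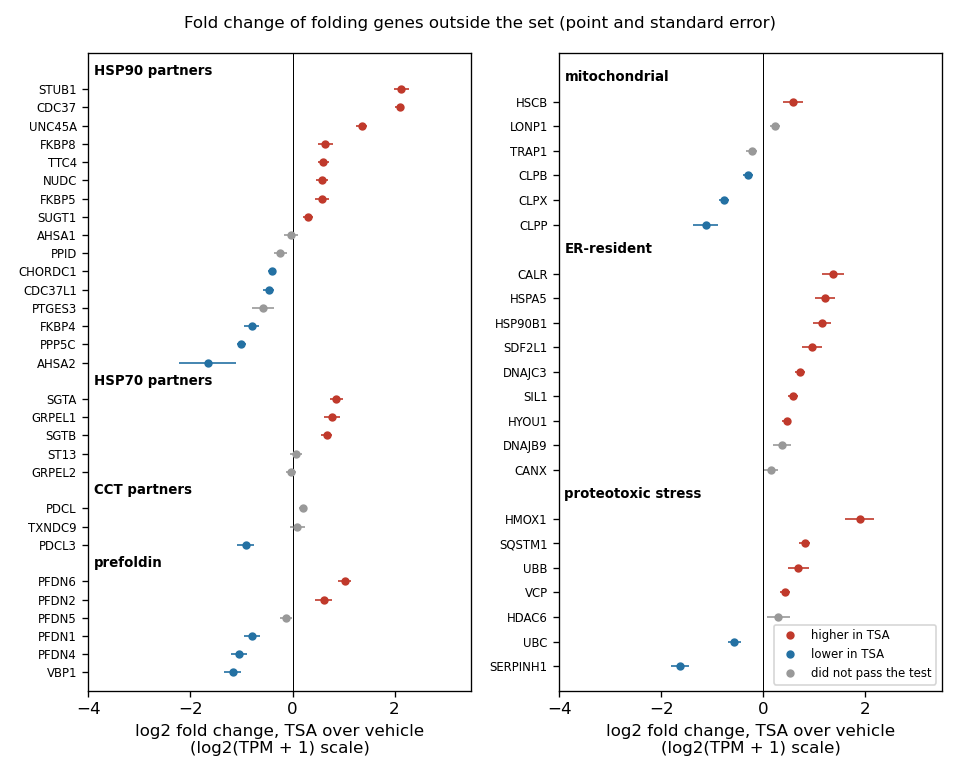
Log2 fold change (TSA over vehicle, on the log2(TPM + 1) scale) of 52 folding genes outside the set, grouped by role, with the standard error as a bar and n = 3 libraries per group. The 9 genes of the endoplasmic reticulum lie above 0 (CANX at −0.02 under quantile scaling), and the groups of HSP90 partners, prefoldin and mitochondrial genes have points on both sides.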

How the data were processed

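Messenger RNA of H69 cells was sequenced from 3 TSA and 3 vehicle libraries, per the labels with a stranded kit. Per the submitters' processing notes, edgeR, featureCounts, Picard 1.127, STAR 2.5.3a, FastQC 0.11.2 and hg19 were used, with roles not stated there. The authors deposited TPM values with GENCODE 19 in the file's name. A second table deposited by the authors holds a log2 fold change, a likelihood ratio score and a p-value with FDR per gene, per the file headers, and positive means higher in TSA (97.1% of tested genes had the sign of the TPM fit).

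Samples were grouped by their treatment label. Testing used limma 3.58.1 under R 4.3.3 (eBayes with trend) on log2(TPM + 1), which understates changes of low genes, over genes that reached 1 TPM in at least 3 libraries, two-sided, adjusted by Benjamini-Hochberg over all tested genes. Single values of 3 against 3 libraries cannot go below an exact two-sided permutation p of 0.10, so none was run. Whole reads were recovered from TPM ratios for 100% of 27644 genes above 0 in at least 2 libraries (relative tolerance 1e-12) as the smallest whole numbers, so depths are lower bounds. The fit was tested on simulated data. Lengths, GC content and exon overlap are from GENCODE 29, on another build. Figures were drawn with matplotlib 3.10.9.

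Members and lists were chosen with earlier results of these data known. Values in every library are given for 12 genes of prior interest and, per role, for the most abundant member and up to 3 members with the greatest rise and 3 with the greatest fall past the test. The alternatives were other pseudocounts, filters, scalings and variance models, a replicate block, omission of libraries, voom on recovered reads, rescaling without mitochondrial genes, and removal of length and GC trends (fitted on 95.4% of tested genes).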

Additional observations from a re-analysis of the deposited data

How the results depend on the processing

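Over 19 alternatives the number of members that rose was 16 to 25 and the number that fell 19 to 28, against 20 and 25, and for the list outside the set 21 to 27 and 10 to 17, against 25 and 14. None of these moved by more than 1.5 times. Of the 45 called members 31 kept their call in all alternatives in which they were tested (16 higher, 15 lower), and 14 lost it in at least 1, in 0 cases with a turned sign. Another 16 members passed only under an alternative. Leaving out 1 library gave 16 to 22 higher and 21 to 25 lower members. The log2 fold changes that turned sign belonged to genes that had not passed, except CHORDC1 (−0.41) and CLPB (−0.31), which were called lower, and the causes were not tested. DNAJC6 (adjusted p 0.037) and HSPA4L (adjusted p 0.0066) were called higher where length and GC trends were removed. Under median-of-ratios scaling, they were DNAJC6 0.064, DNAJC19 0.056, HSPA9 0.070, DNAJC30 0.033, BAG5 0.0038, DNAJA2 0.11, AHSA1 0.090 and GRPEL2 0.086. Under quantile scaling, they were DNAJC6 0.095, DNAJC19 0.051, HSP90AB1 −0.037, DNAJC30 0.098, DNAJA2 0.14, AHSA1 0.12, GRPEL2 0.088 and CANX −0.021. Under voom on recovered reads, they were DNAJC6 0.078, DNAJC19 0.070, HSPA9 0.083, DNAJC30 0.048, BAG5 0.017, DNAJA2 0.12, AHSA1 0.10, GRPEL2 0.10 and PFDN5 0.0018. With length and GC trends removed, they were DNAJC6 0.32, DNAJC19 0.13, HSPA4L 0.39, HSPA9 0.21, BAG5 0.19, DNAJA2 0.17, CHORDC1 0.014, GRPEL2 0.27, CLPB 0.11 and LONP1 −0.013. Without both replicate 1 libraries, they were HSPA4 −0.033, DNAJC25 −0.018, DNAJA2 0.038 and AHSA1 0.0021. Without mitochondrial genes, they were DNAJA2 0.027, AHSA1 0.011 and GRPEL2 0.0075. Leaving out 1 library at a time, the log2 fold change was −0.13 to 0.0007 for DNAJC30, −0.015 to 0.20 for DNAJC25, −0.066 to 0.053 for DNAJA2, −0.11 to 0.079 for AHSA1, −0.027 to 0.14 for ST13, −0.097 to 0.019 for GRPEL2 and −0.017 to 0.24 for TXNDC9. With the replicate number as a block 25 members were higher and 28 lower. Same-numbered libraries deviated together for replicates 1 and 2 (r = 0.63 and 0.59 across genes) but not for 3 (r = −0.07), and TSA library 3 correlated best with vehicle library 2 (r = 0.38). Within a group the deviations from the mean cancel out, so these correlations depend on each other and cannot settle whether libraries were paired. No label names pairs, and the main fit did not use the numbers as pairs. Genes with few reads, such as HSPA6, are limited by depth.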

Other observations

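Readthrough genes that join members to their neighbours were listed apart from them. HSPE1-MOB4 averaged 303 ± 59.5 TPM in TSA libraries and 518 ± 82.0 TPM in vehicle libraries (SD, n = 3 each, log2 fold change −0.78 ± 0.19 SE, limma adjusted p 0.011), in the same direction as HSPE1. Its TPM, a value per length, was above that of HSPE1 in both groups, but recovered reads were close. HSPE1-MOB4 had 1537, 2349 and 2007 reads in TSA libraries and 2533, 3260 and 3436 in vehicle libraries. HSPE1 had 1397, 2240 and 1885 reads in TSA libraries and 2481, 3423 and 3387 in vehicle libraries. DNAJC25-GNG10 averaged 22.7 ± 4.40 TPM in TSA libraries and 58.5 ± 6.38 TPM in vehicle libraries (log2 fold change −1.34 ± 0.16 SE, limma adjusted p 0.00046). DNAJC25, with which it shares 13.8% of exon bases, did not pass at 40.5 ± 7.04 TPM and 36.9 ± 2.20 TPM (adjusted p 0.47). HSPB2-C11orf52 averaged 1.23 ± 0.408 TPM in TSA libraries and 2.10 ± 0.453 TPM in vehicle libraries and did not pass (adjusted p 0.079), while HSPB2 was listed at 0 in every vehicle library.

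Copies with the name of a pseudogene of a member reached at most 6.88% of the parent for DNAJC19, 4.14% for CCT6A and 1.27% for HSPB1, and less for the other 10 members that had such copies. For HSPA8, 11 such copies summed to 1.54 to 5.58 TPM in TSA libraries and 2.19 to 4.12 TPM in vehicle libraries, and for HSPD1 7 copies summed to 1.98 to 2.79 TPM in TSA libraries and 1.92 to 4.13 TPM in vehicle libraries, each at most 0.818% of the parent.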
